A study of Rattus norvegicus with 9 samples.

Results

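Defensin-rich early neutrophil precursors are cells of the marrow that make neutrophil granules, and here they were taken from single-cell RNA libraries by a rule on their UMIs (unique molecular identifiers, each counting a captured RNA molecule). Cells were kept from 200 genes upward and with no more than 20% of their UMIs mitochondrial. Members were chosen by measured levels: per 10000 UMIs of a kept cell, the defensin genes RatNP-3b, Np4, Defa11 and Defa5 together had to reach 50 and the azurophil granule genes Mpo, Elane, Prtn3 and Ctsg together to stay under 20. The rule found 5339 members among 114232 kept cells (4.67%). These 8 genes therefore describe how the members were chosen, and no test was made on them.

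The tissue came from the tibial osteotomy site of Sprague-Dawley rats aged 6 to 8 weeks, and every group carried a 3-mm circular osteotomy of the proximal tibia and a 4-mm full-thickness wound of the foot. TO rats had no further treatment, and TOE rats also received radial shock waves at the osteotomy on day 2 and, where collected after the later session, on day 4. Tissue was taken 4 h or 24 h after a session or at the matching time, and the study asked which cells release small extracellular vesicles after shock waves. The 8 libraries analysed were TO 2d 0h (before any session), TO 2d 4h, TO 4d 4h, TO 4d 24h, TOE 2d 4h, TOE 2d 24h, TOE 4d 4h and TOE 4d 24h, with 1 library per condition, and TO 2d 24h was not analysed here. The labels do not say how many of the 9 rats went into a library. Comparisons were therefore made between 4 libraries and 4 libraries (4 h against 0 h and 24 h, day 4 against day 2, TOE against TO), and no test was made between single libraries.

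Neutrophils develop in the bone marrow from dividing progenitors that fill their granules in order. Azurophil (primary) granule proteins such as myeloperoxidase and the serine proteases come first, the defensins follow late in that stage, and the proteins of secondary granules such as cathelicidin and lipocalin 2 come next, as the cells stop dividing. Rat neutrophil defensins are small cationic peptides that damage the membranes of microbes.

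The promoters of the defensin genes that chose the cells are shown so that the genes behind the rule can be compared by their letters. RefSeq (GRCr8) gave an entry for 3 of the 4 genes, each on the minus strand, and the 250 bases before the start of the gene are printed 5′ to 3′. Capitals mark TTGCNNAA, a form of the site bound by C/EBP factors, and AACCACA, a form of the site bound by RUNX factors, both searched on both strands.
RatNP-3b (chr16:77248978-77249227): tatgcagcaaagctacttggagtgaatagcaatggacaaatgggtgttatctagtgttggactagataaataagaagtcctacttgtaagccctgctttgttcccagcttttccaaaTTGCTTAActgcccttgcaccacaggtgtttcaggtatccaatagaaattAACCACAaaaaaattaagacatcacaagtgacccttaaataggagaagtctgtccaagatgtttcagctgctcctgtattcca
Np4 (chr16:77199643-77199892): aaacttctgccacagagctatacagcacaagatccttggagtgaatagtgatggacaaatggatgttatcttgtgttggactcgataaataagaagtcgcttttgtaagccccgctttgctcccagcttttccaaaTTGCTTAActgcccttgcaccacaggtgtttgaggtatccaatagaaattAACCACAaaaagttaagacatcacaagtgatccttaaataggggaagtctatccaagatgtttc
Defa11 (chr16:77238042-77238291): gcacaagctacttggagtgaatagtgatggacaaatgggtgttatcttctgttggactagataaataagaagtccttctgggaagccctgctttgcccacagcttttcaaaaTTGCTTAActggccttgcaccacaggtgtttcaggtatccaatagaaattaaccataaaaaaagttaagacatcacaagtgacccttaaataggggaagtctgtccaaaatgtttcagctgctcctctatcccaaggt

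The C/EBP letters began 133 bases before the start in RatNP-3b, 114 in Np4 and 138 in Defa11. The RUNX letters began 83 bases before the start in RatNP-3b and 64 in Np4 and were not found in Defa11. Of 33469 rat promoters of the same length, 9.22% held TTGCNNAA, 4.59% held AACCACA and 0.604% held both. RatNP-3b and Defa11 were identical at 89.0% of aligned positions, RatNP-3b and Np4 at 78.8%, and Np4 and Defa11 at 75.2%, against 39.5% to 42.0% for the defensin promoters set beside those of Camp or Mpo. The Camp, Ms4a3 and Mpo promoters held neither motif in these windows. A match of letters is a description and does not show that a factor binds there. The defensins form a multigene family, and whether the counting split reads between their transcripts was not tested, so levels of single defensin genes are uncertain.

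The members fell into 2 kinds when the markers of other cells were read. Of the 5339 members, 2686 had under 10 UMIs per 10000 of the 7 B-lineage markers measured (Cd79a, Cd79b and others), and 2653 had 10 or more. The members with few B-lineage UMIs had a median of 13064 UMIs and 2840.5 genes per cell, and the others a median of 1754 UMIs and 1136 genes. In the cells with 10 or more, the median per cell was 49.9 B-lineage, 124 erythroid and 37.5 mesenchymal UMIs per 10000, against 2.25, 9.20 and 1.89 in the cells with few. Across genes, the summed profile of the members with 10 or more correlated with that of their whole library at 0.925 to 0.984 and with the members with few at 0.898 to 0.940, while the members with few correlated with their whole library at 0.893 to 0.919. In TO 4d 4h (0.934 against 0.925) and TOE 4d 4h (0.938 against 0.937) the members with 10 or more were nearer to the members with few than to the library. The data thus went against the label in the cells with 10 or more as a whole, which carried a broad mix of marrow RNA. The cells with few were nearer to it, with the lowest defensin levels as a partial exception that is given with the bands. The cells with 10 or more were uneven: TO 4d 4h held 67 of them with a median of 14536 UMIs, and over all libraries 135 and 25 had 1600 to under 3200 and 3200 or more defensin UMIs per 10000, with medians of 15318 and 18399 UMIs. The erythroid markers summed over the cells with 10 or more ran from 0.483 (TOE 4d 24h) to 143 (TO 2d 4h) per 10000 between libraries, and TO 2d 4h gave 1381 of the 2653. The limit of 10 was set after these values had been seen, and 654 members had 5 to under 20. All results below are given for the 2686 members with few B-lineage UMIs, called the clean members here, unless all members are named. The word clean refers to B-lineage UMIs only. Summed over these cells, erythroid markers reached 54.1 UMIs per 10000 (TO 2d 4h) and mesenchymal markers 35.8 (TOE 2d 24h).

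TO 2d 4h stood apart in this respect. It held 1756 members, of which 1381 (78.6%) had 10 or more B-lineage UMIs per 10000, against 15.1% to 51.0% in the other 7 libraries. Libraries held 95954800 to 144146202 UMIs, and the clean members summed to 2125378 (TO 4d 24h) to 5781215 (TOE 4d 4h). Pairs of libraries shared 38 to 108 cell barcodes, of which at most 10 in a pair and 14 in all were members. Scrublet gave 187 members, 57 of them clean, a doublet score over 0.25, and none was removed for it. Kept B-lineage cells, which do not transcribe these defensins, carried 4.71 to 8.82 defensin UMIs per 10000 with a 99th percentile of 25.2 to 34.0, below the limit of 50. These B-lineage cells had medians of 4189 (TOE 2d 24h) to 4821 UMIs (TO 4d 4h), so the percentile does not bound stray RNA in shallower cells. Just inside that limit (50 to 60) lay 386 cells with a median of 958.5 UMIs, of which 27.7% were clean, and just outside it (40 to 50) lay 468, of which 30.8% were. At the protease limit, 566 members lay just inside (15 to 20), of which 15.9% were clean, and 367 cells just outside (20 to 25), of which 15.5% were.

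Members made up 2.92% (TO 2d 0h, 95% exact binomial interval 2.65 to 3.20), 11.5% (TO 2d 4h, 10.96 to 11.98), 3.49% (TO 4d 4h), 2.42% (TO 4d 24h), 4.48% (TOE 2d 4h), 4.51% (TOE 2d 24h), 3.26% (TOE 4d 4h) and 4.14% (TOE 4d 24h) of the kept cells. TO 2d 4h was highest and the other 7 libraries lay between 2.42% and 4.51%. Clean members made up 1.94% (TO 2d 0h), 2.45% (TO 2d 4h), 2.97% (TO 4d 4h), 1.496% (TO 4d 24h), 2.20% (TOE 2d 4h), 2.83% (TOE 2d 24h), 2.19% (TOE 4d 4h) and 2.88% (TOE 4d 24h). By this count TO 2d 4h lay within the range of the others. These intervals cover counting error only. The share of all members was 4.10% ± 0.582 (SD, n = 4) in TOE and 5.07% ± 4.28 (n = 4) in TO. All tests of member shares used the difference of mean log2 shares. Here it was -0.01, and an exact two-sided permutation test did not separate the arms (p = 1). For clean members it was 2.53% ± 0.383 in TOE and 2.21% ± 0.636 in TO (exact permutation p = 0.429, n = 4 each). At 4 h the clean share was 2.45% ± 0.365 and at 0 h and 24 h 2.29% ± 0.681 (exact permutation p = 0.629), and on day 4 it was 2.38% ± 0.686 against 2.36% ± 0.380 on day 2 (exact permutation p = 0.971). All groups of clean members overlapped. For all members the share was 3.33% ± 0.711 on day 4 and 5.84% ± 3.82 on day 2 (exact permutation p = 0.229, n = 4 each). Without TO 2d 0h the days did not overlap (difference of mean log2 shares -0.91, exact permutation p = 0.0286, adjusted over 3 factors 0.0857). With any other library left out the exact permutation p was 0.229 to 0.486. Without TO 2d 4h the difference was -0.25 (exact permutation p = 0.4).

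**Figure D1:**
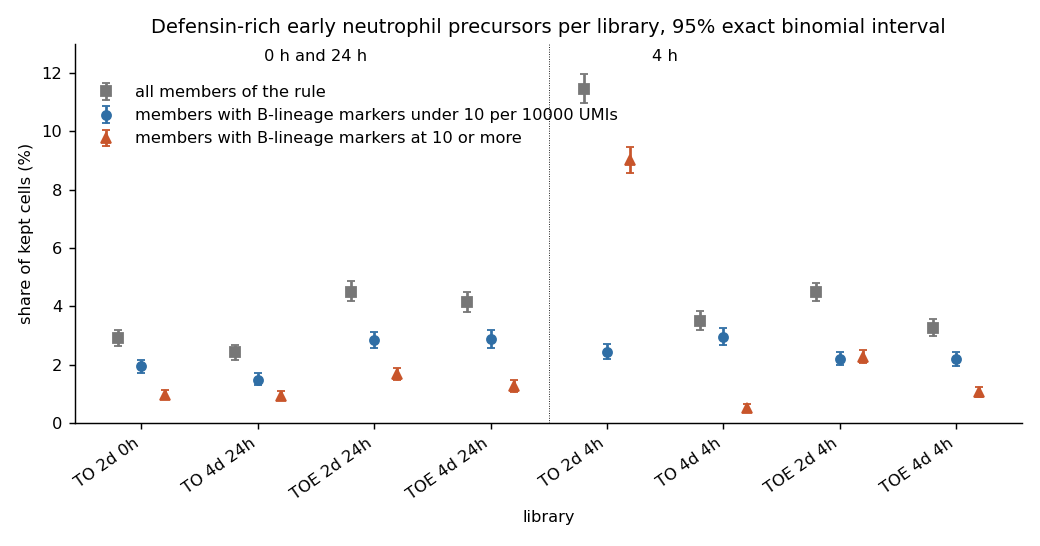
Share of kept cells (%) that were members in each of the 8 libraries, for all members and for members under or at 10 B-lineage UMIs per 10000, with 95% exact binomial intervals. TO 2d 4h reaches 11.5% for all members but 2.45% for those with few B-lineage UMIs.

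The share was also counted among cells of the neutrophil line, that is, protease-rich progenitors (20 or more protease UMIs per 10000), members, immature neutrophils (under both limits, with at least 50 UMIs per 10000 of Camp, Ltf, Ngp and Lcn2) and mature neutrophils (the rest with at least 100 UMIs per 10000 of S100a8 and S100a9). The mature group was set by S100 RNA alone and need not be 1 late stage. In its cells under 10 B-lineage UMIs per 10000, genes with symbols of ribosomal proteins summed to 404 to 1169 UMIs per 10000. In such immature neutrophils they summed to 229 to 301. For the clean share both members and the other cells of the line had under 10 B-lineage UMIs per 10000. The mean of the clean share was lower on day 4, but the difference did not pass adjustment. On day 4 it was 17.1% (TO 4d 4h), 8.34% (TO 4d 24h), 16.8% (TOE 4d 4h) and 11.1% (TOE 4d 24h), with a mean of 13.4% ± 4.34 (SD, n = 4). On day 2 it was 20.2% (TO 2d 0h), 17.3% (TO 2d 4h), 22.2% (TOE 2d 4h) and 18.9% (TOE 2d 24h), with a mean of 19.7% ± 2.07 (SD, n = 4). The days did not overlap, and the exact permutation test (two-sided, n = 4 each) gave p = 0.0286, the smallest it can give, which was 0.0857 after Benjamini-Hochberg adjustment over 3 factors. The nearest libraries of the days were TO 4d 4h (17.1%) and TO 2d 4h (17.3%), and this share was not tested with a library left out. This denominator moves with the number of later neutrophils captured. In the 3 matched pairs of TOE and TO, the clean shares of kept cells had the ratio 0.897 (2d 4h, interval 0.775 to 1.04), 0.739 (4d 4h, interval 0.633 to 0.862) and 1.92 (4d 24h, interval 1.62 to 2.29), where the intervals cover counting error only and not the spread between rats. As clean shares of the neutrophil line the ratios were 1.28, 0.981 and 1.33 in the same order.

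The defensins took a large part of the RNA of these cells. In clean members RatNP-3b gave a median over libraries of 10.3% of all UMIs (7.12% to 14.3%), Defa5 4.96% (4.14% to 5.52%), Np4 4.93% (3.61% to 5.29%) and Defa11 0.262% (0.191% to 0.357%). Together they made 20.0% (17.4% to 24.6%). Of the defensins the rule did not use, Defa7 was at 72.5, 145 and 217 CPM (lowest, median and highest library, where CPM is UMIs per 1000000 UMIs summed over the members of a library) and Defa10 at 60.2, 81.6 and 145 CPM. UMIs count molecules and were not divided by gene length.

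The mix of these defensins moved with the hour of collection. RatNP-3b made 43.7% (TO 2d 4h), 42.2% (TO 4d 4h), 39.7% (TOE 2d 4h) and 43.8% (TOE 4d 4h) of the UMIs of the 4 genes at 4 h. It made 58.6% (TO 2d 0h), 58.2% (TO 4d 24h), 59.2% (TOE 2d 24h) and 55.9% (TOE 4d 24h) of them otherwise. All 4 libraries of 4 h lay below all the others. The 4 h libraries held more of Np4 (27.0% to 28.8% against 17.7% to 23.7%) and Defa5 (28.1% to 30.0% against 18.9% to 21.8%), and Defa11 overlapped (1.03% to 1.48% against 1.27% to 1.53%). RatNP-3b was also lower at 4 h in protease-rich progenitors (33.3% to 38.3% against 50.1% to 55.2%), in immature neutrophils (32.8% to 38.3% against 42.6% to 49.96%), in mature neutrophils (29.2% to 34.6% against 42.4% to 47.1%) and in all cells that were not members (32.9% to 37.8% against 48.9% to 53.4%). The split was thus seen in each of these sets, but they are not separate readings. The progenitors alone held 2845721 of the 3783393 defensin UMIs of the cells that were not members. Immature and mature neutrophils, which the rule keeps low in defensins, held 52131 and 38258. Kept B-lineage cells, which do not transcribe these defensins, also carried some of their UMIs. The part of such stray RNA in the split was not tested. The defensins are genes of the rule, so the values are a description with no test.

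The azurophil granule genes of the rule were low in members and high in protease-rich progenitors by construction. Mpo was at 123, 142 and 179 CPM (lowest, median, highest library) in clean members and at 2329, 3047 and 3311 in the progenitors. The medians of the serine proteases were 40.3 CPM for Elane, 32.8 for Ctsg and 16.4 for Prtn3 in members and 6759, 6346 and 4034 in progenitors. Outside the rule, Srgn, the proteoglycan core that packs granule proteins, was at 5190, 6434 and 7613 CPM in members, with medians of 13554 in progenitors, 422 in immature and 1298 in mature neutrophils. Ms4a3, a membrane protein of granulocyte and monocyte progenitors, was at 404, 502 and 555 CPM, with medians of 731, 8.0 and 6.2 in the same order. Members thus lay near the progenitors in Ms4a3 and between progenitors and immature cells in Srgn. Lyz2, the lysozyme, was at 4450, 7203 and 11895 CPM.

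Among secondary granule genes, Camp (cathelicidin) was already at 18877 (TO 2d 4h), 21851 and 28006 CPM (TOE 4d 24h) in members, against medians of 463 in progenitors and 19757 in immature neutrophils, whose rule used Camp, Ltf, Ngp and Lcn2. Lcn2 (lipocalin 2, which binds iron-carrying siderophores) was at 106 (TO 2d 0h), 1129 and 3543 CPM (TOE 4d 4h), with medians of 39.5 in progenitors and 3905 in immature cells. Ngp, a granule protein of the cathelicidin family, was at 356, 1052 and 3472 CPM, with medians of 183 and 19373. Camp was thus near its level in immature cells, while Ngp was far below it and Lcn2 spread widely between libraries. Cd177, a surface protein of neutrophils, was at 100.2, 184 and 290 CPM against 903 in immature cells. Ltf (lactoferrin) had 13 UMIs over all clean members.

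Genes of later neutrophils were low and the calprotectin genes were not. Mmp8 (collagenase) was at 20.5, 79.6 and 176 CPM in members and at a median of 3100 in immature and 2309 in mature neutrophils. Mmp9 (gelatinase) was at 3.16, 15.9 and 30.6 CPM against 564 in immature cells, and Cxcr2, a receptor for chemokines that draw neutrophils, at 10.1, 21.5 and 30.9 CPM against 86.4. S100a9 was at 90565, 107509 and 119540 CPM and S100a8 at 43139, 49443 and 99578 CPM, with progenitor medians of 5118 and 2654.

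The listed factors of granulocyte development did not share an order. Of 17, in clean cells, 11 were called higher and 4 lower than in progenitors, and 5 higher and 8 lower than in immature neutrophils, where 76% and 69% of all genes were called and the rule itself divides the cells. Cebpe, the C/EBP factor of secondary granule genes, was at 301, 338 and 420 CPM in members, with medians of 95.4 in progenitors, 294 in immature and 25 in mature neutrophils. Gfi1, a repressor needed for neutrophil development, was at 37.9, 53.1 and 116 CPM, with medians of 47.7, 29.7 and 7.4. Myb, a factor of dividing progenitors, was at 89.4, 107 and 133 CPM against 280 in progenitors and 36.9 in immature cells. Spi1 (PU.1) was at 161, 249 and 392 CPM. Among the stages Cebpe had its highest median in members, and Myb had a lower median in each later stage given.

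The difference from the neighbouring stages was also read gene by gene. Since the rule divided these same cells, counts are a description. Against progenitors 8328 of 10953 genes (76%) had an adjusted p under 0.05 in clean cells (edgeR quasi-likelihood, summed UMIs per library), over all members 8612 of 11689 (73.7%), and against immature neutrophils 7483 of 10848 (69%). The largest differences above progenitors on the log2 scale were in Nt5c1a (6.21), Camp (5.76), Alox5 (5.66), which starts leukotriene synthesis, Chit1 (5.65), a chitinase, Tf (5.24), transferrin, and Lcn2 (5.19), followed by Ceacam4 (5.14), Pcsk6 (5.03), Reps2 (4.95) and Cd177 (4.82). Tf reached 2245 to 7109 CPM and Alox5 46.1 to 152 CPM. The largest below progenitors were in F10 (-5.03), coagulation factor X, Plppr3 (-4.63), Klhl30 (-4.55), Dnph1 (-4.40), Nme4 (-4.40), Ramp1 (-4.36) and Cd34 (-4.35), a surface marker of blood progenitors, which was at 0 to 4.02 CPM in members. Of the listed secondary granule genes 11 of 12 were higher and 1 was lower (median 4.10), all 23 listed G2/M genes were higher (median 0.83), and 9 of 21 S-phase genes were higher and 8 lower (median -0.08). Of 16 listed endoplasmic reticulum folding genes 2 were higher and 13 lower (median -1.54). Over all genes 37.8% were called higher and 38.3% lower than in progenitors.

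Against immature neutrophils the largest differences were in Ms4a3 (5.89), Defa7 (5.61), Prom1 (4.15), a membrane protein of progenitors, Defa10 (4.13), Adgrb2 (4.09), Ms4a2 (3.94), Srgn (3.88), Adamtsl2 (3.88), Krt79 (3.52) and Chrdl2 (3.40). Prom1 was at 31.5 to 78.7 CPM and Krt79, a keratin, at 44.3 to 59.0 CPM in every library of members, whereas Chrdl2 ranged from 0 to 58.4 CPM. Lower in members were Mmp8 (-5.44), Mmp9 (-5.33), Stfa2l1 (-4.73), a cystatin-like protease inhibitor, Bmx (-4.55), a tyrosine kinase, Fpr1 (-4.42), a receptor for bacterial formyl peptides, Stfa2l2 (-4.38), Prok2 (-4.36), Tcn2 (-4.30), Mgam (-4.28) and Crispld2 (-4.21). All 21 S-phase genes and 22 of 23 G2/M genes were higher in members (medians 2.40 and 1.34), all 20 listed genes of mature neutrophils were lower (median -2.28), and 7 of 9 secondary granule genes were lower (median -0.998). Over all genes 35.7% were called higher and 33.3% lower in this comparison.

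Members differed among themselves along the level of defensin RNA. Clean members were put in 7 bands from 50 to 3200 or more defensin UMIs per 10000, holding 313, 236, 245, 279, 401, 737 and 475 cells, and levels were taken per 1000000 UMIs outside the defensins. From the lowest to the highest band Ms4a3 went through 72.3, 74.6, 121, 199, 337, 806 and 1478, and Srgn through 706, 651, 1079, 1583, 3196, 10336 and 21848. Lcn2 went the other way, through 5051, 5266, 3217, 3176, 1654, 621 and 107. Cells richest in defensins thus had the most early-stage RNA and the least Lcn2. In the 313 and 236 clean members of the lowest bands, Lcn2 lay above its median in immature neutrophils (3905 CPM) and Ms4a3 far below its median in progenitors (731 CPM). These 2 genes thus did not bear out the word early in the label there. Ms4a3 was still above its median in immature neutrophils. Cell cycle RNA, measured as described below, also lay above that of immature neutrophils. The G2/M shares of these bands were 49.7% and 46.2% against 4.44% to 15.4% in immature neutrophils by library. The S shares were 17.1% and 16.5% against 1.73% to 6.91%. Camp was at 30077 in the lowest band, 33484 at 400 to 800 and 18690 in the highest. The bands use the measure of the rule, and cells in the lowest bands had fewer UMIs (median 4628 against 17623 in the highest), so these values are given as a description.

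**Figure D2:**
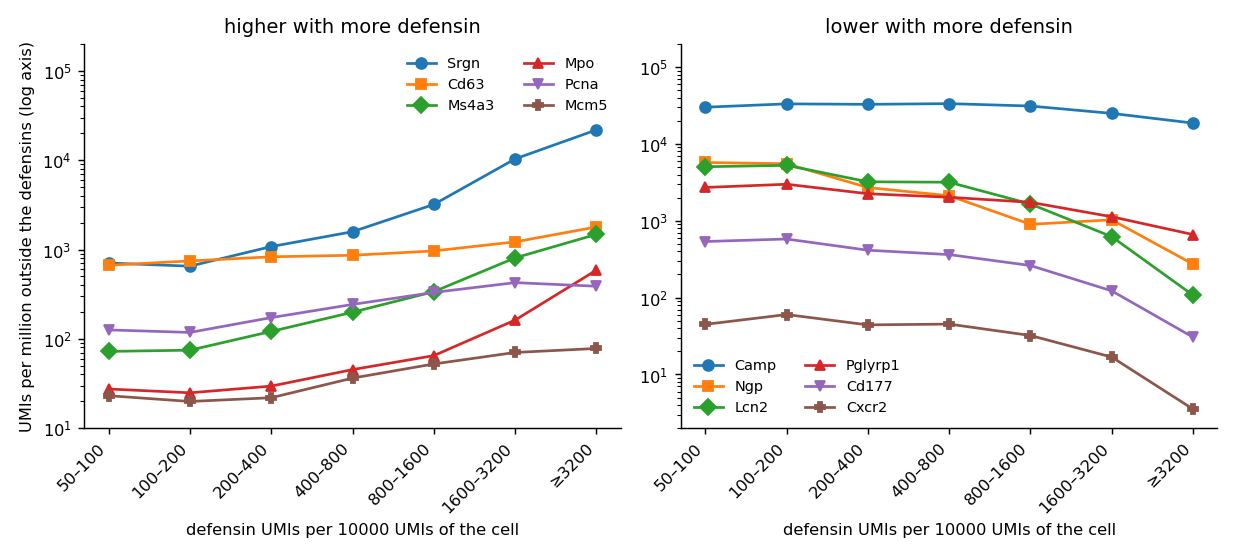
Level of 12 genes (UMIs per 1000000 outside the defensins, log axis) in clean members by band of defensin UMIs per 10000. Srgn climbs from 706 to 21848 and Ms4a3 from 72.3 to 1478 across the bands, while Lcn2 descends from 5051 to 107.

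Bands were also compared library by library, leaving out the lowest bands, where Lcn2 and Ms4a3 went against the word early in the label. Members with 200 to under 800 defensin UMIs (524 cells) were set against those with 3200 or more (475 cells), as means over the 8 libraries. Srgn was at 1239 in the former and 21947 in the latter (17.7 times) and Ms4a3 at 155 and 1487 (9.61 times), each higher in the defensin-richest cells of 8 of 8 libraries. Of 21 listed S-phase genes 14 were higher there in all 8 libraries, among them Hells, a chromatin remodeller, at 28.6 and 118 and Mcm2, a subunit of the replicative helicase, at 16.2 and 59.3. Of 22 listed genes of mature neutrophils 7 were lower in the defensin-richest cells of all 8 libraries, among them Cxcr2 at 42.6 and 3.72 and Fpr2, a formyl peptide receptor, at 242 and 18.1. In all, 19 of the 22 were lower in most libraries, while Csf3r, the receptor for the growth factor of granulocytes, was at 38.0 and 37.4 and higher in 5 of 8. Of the 13 secondary granule genes measured 9 were lower in all 8 libraries, with Cd177 at 373 and 30.2. Of 23 G2/M genes 9 were lower and 1 was higher in all 8 libraries, and 21 were lower in most, with a median ratio of 0.677. Over all 8069 genes with at least 100 UMIs, 12.0% were higher and 4.76% lower in all 8 libraries, and 30.6% were lower in most. The lists had no such limit and held genes of few UMIs, such as Cxcr1 with 0. The defensin sum of the rule defines both sets, so these are descriptions.

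Most members carried RNA of the cell cycle. Cells were thinned to 2000 UMIs, and the share with at least 3 UMIs of a listed set was taken. For the G2/M list the median over libraries was 60.3% (54.7% to 66.8%) in clean members, 53.5% (37.3% to 62.1%) in progenitors, 8.34% (4.44% to 15.4%) in immature and 10.4% (3.98% to 26.0%) in mature neutrophils. For the S list it was 53.4% (44.7% to 59.0%) in members, 58.9% (48.7% to 75.8%) in progenitors, 2.93% (1.73% to 6.91%) in immature and 11.7% (2.17% to 17.9%) in mature neutrophils. Members and progenitors overlapped in both lists, and members lay above immature and mature neutrophils in every library. Unthinned, the G2/M medians were 82.7% in members, 89.7% in progenitors, 37.2% in immature and 28.7% in mature cells. Thinning left out 315 of 2686 members, 142 of 1520 progenitors, 245 of 6108 immature and 745 of 6815 mature cells. Mki67, a marker of dividing cells, was at 255, 312 and 459 CPM in members against 233 in progenitors and 93.4 in immature cells, and Pcna, the sliding clamp of replication, at 124, 254 and 318 CPM against 191 and 82.3.

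**Figure D3:**
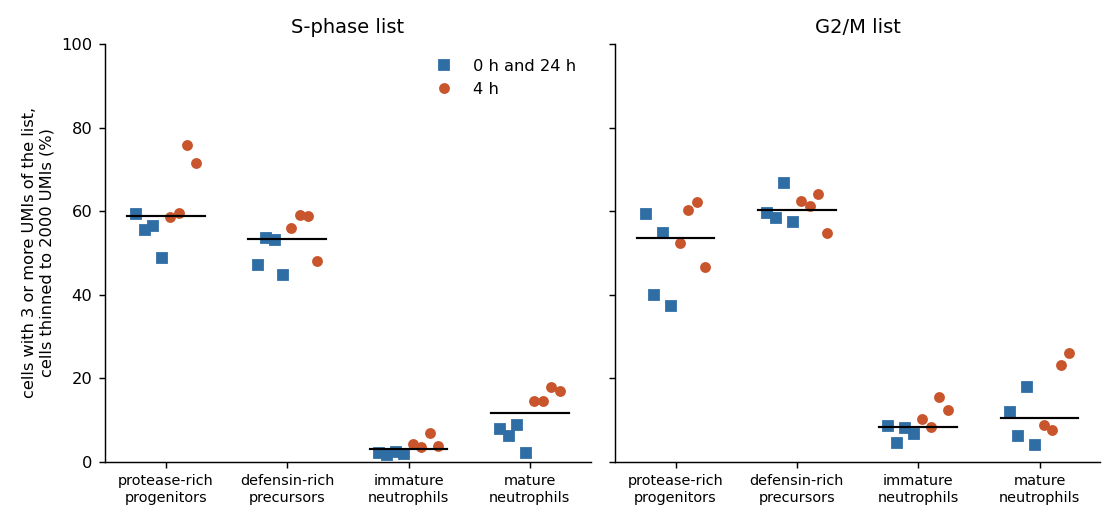
Share of cells (%) with at least 3 UMIs of the S or the G2/M list after thinning to 2000 UMIs, for 4 stages of the neutrophil line; points are the 8 libraries and bars the medians. Members (G2/M 60.3%, S 53.4%) lie beside the progenitors and above immature neutrophils (8.34% and 2.93%).

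Within the members the S share followed the defensin level more than the G2/M share did. It was 17.1% (11.9% to 23.4%), 16.5%, 25.3%, 37.1%, 52.2%, 70.3% and 71.6% (67.2% to 75.7%) from the lowest to the highest band, and G2/M was 49.7%, 46.2%, 54.4%, 61.3%, 67.8%, 69.6% and 54.4%. Thinning left out 132, 54, 28, 31, 22, 34 and 14 cells of these bands. Between conditions no difference in cycle share passed an exact permutation test adjusted over 6 tests. The smallest p were for G2/M by day (57.9% on day 4 against 63.1% on day 2, exact permutation p = 0.0571, adjusted 0.343) and for S by hour (55.4% at 4 h against 49.7%, exact permutation p = 0.114, adjusted 0.343).

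Gene levels in the members were then fitted on arm, day and hour together (edgeR quasi-likelihood, UMIs summed per library, 4 residual degrees of freedom). The hour of collection gave calls and the other factors gave none. Over all members 631 of 11778 genes (5.36%) had an adjusted p under 0.05 between 4 h and 0 h or 24 h, 231 higher (1.96%) and 400 lower (3.4%). In clean members 812 of 10853 (7.48%) did, 343 higher (3.16%) and 469 lower (4.32%). The calls shared 547 genes, 86.7% of the first set and 67.4% of the second, all in the same direction. Clean members are a part of all members, so these fits are not separate readings. The count in clean members moved when a library was left out. Such fits also have fewer residual degrees of freedom, so a lower count or a lost call need not point to the library removed. The count was 236 without TO 4d 4h, 262 without TOE 2d 4h, 344 without TO 2d 4h, 353 without TO 2d 0h, 386 without TO 4d 24h, 486 without TOE 2d 24h, 546 without TOE 4d 4h and 1871 without TOE 4d 24h. For all members it was 186 to 1209, the lowest without TO 4d 4h and the highest without TOE 4d 24h. Depth split by hour as well: clean members had a median of 13249 to 17955.5 UMIs and 3066.5 to 3615.5 genes per cell at 4 h, against 7906 to 11992 UMIs and 2210 to 2577.5 genes otherwise, and summed to 5235307 to 5781215 UMIs a library against 2125378 to 4474101. The part of depth in the hour result was not tested. Genes described next as held kept an adjusted p under 0.05 in each of these 8 fits in clean members. Before scaling, the median gene was higher at 4 h by 0.25 on the log2 scale, and fitted changes are relative to that shift.

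Cd59b, an inhibitor of the complement membrane attack complex, was at 126 (TO 2d 4h), 127 (TO 4d 4h), 158 (TOE 2d 4h) and 154 CPM (TOE 4d 4h) at 4 h, and at 19.0 (TO 2d 0h), 24.9 (TO 4d 24h), 27.3 (TOE 2d 24h) and 16.1 CPM (TOE 4d 24h) otherwise. Every 4 h library lay above every other, and the call held (log2 change 2.46 ± 0.18 SE, edgeR adjusted p = 0.000261). Slc5a3, a myo-inositol transporter, was at 18.4, 25.6, 15.7 and 19.2 CPM in the 4 h libraries in the same order and at 4.21, 5.65, 2.01 and 2.27 in the others (2.30 ± 0.24, edgeR adjusted p = 0.0011). It did not overlap either and held.

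Il6, the cytokine, was at 21.0, 11.9, 12.99 and 28.4 CPM at 4 h and at 3.16, 2.35, 2.91 and 3.40 CPM in the others (2.38 ± 0.36, edgeR adjusted p = 0.00571). Groups did not overlap, but the level was low in all libraries. Orm1, an acute-phase protein of secondary granules, was at 248, 313, 329 and 376 CPM at 4 h and at 128, 97.4, 136 and 145 CPM in the others (1.06 ± 0.15, edgeR adjusted p = 0.0042).

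Among transcription factors Id1, an inhibitor of helix-loop-helix factors, was at 116, 140, 146 and 116 CPM at 4 h and at 47.4, 44.2, 63.7 and 31.3 CPM in the others (1.25 ± 0.18, edgeR adjusted p = 0.0042). Klf5 was at 72.8, 88.6, 77.9 and 76.3 CPM at 4 h and at 37.7, 43.3, 33.8 and 38.3 CPM in the others (0.79 ± 0.13, edgeR adjusted p = 0.0075). The AP-1 members went apart. Fosl1 was higher at 4 h, at 60.3, 62.1, 45.7 and 66.6 CPM against 22.6, 24.0, 25.9 and 17.4 (1.13 ± 0.18, edgeR adjusted p = 0.0076), and Jund was lower, at 247, 260, 236 and 251 CPM against 562, 587, 631 and 311 (-1.29 ± 0.19, edgeR adjusted p = 0.0047). None of these overlapped, and all 4 held in clean members. Lefty2, a secreted antagonist of the TGF-β family, was at 8.56, 24.3, 11.8 and 21.1 CPM against 3.42, 1.41, 2.68 and 3.40 (2.15 ± 0.35, edgeR adjusted p = 0.00759) and held as well.

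The deepest falls at 4 h were in other kinds of genes. Snord13, a small nucleolar RNA, was at 1.12, 0.901, 1.53 and 0.519 CPM at 4 h against 23.2, 30.1, 20.3 and 69.8 (-5.28 ± 0.45, edgeR adjusted p = 0.000449), and Snord118 at 2.42, 2.88, 0.764 and 2.94 CPM against 21.3, 42.3, 16.5 and 118 (-4.53 ± 0.49, edgeR adjusted p = 0.00198). Reln, a secreted glycoprotein, was at 0.186, 0.18, 1.72 and 0.346 CPM against 11.6, 11.8, 35.3 and 9.06 (-5.02 ± 0.46, edgeR adjusted p = 0.000475). All 3 held and did not overlap. Prss34, a serine protease of mast cells and basophils, was at 0.186, 0.36, 0 and 4.32 CPM against 6.58, 36.2, 60.8 and 75.7 (-5.72 ± 0.60, edgeR adjusted p = 0.00215), and Prss29 at 0.93, 0.18, 0 and 0.692 CPM against 10.8, 112, 116 and 186 (-7.99 ± 0.86, edgeR adjusted p = 0.00523). A fitted change of genes this low depends on the prior count.

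**Figure D4:**
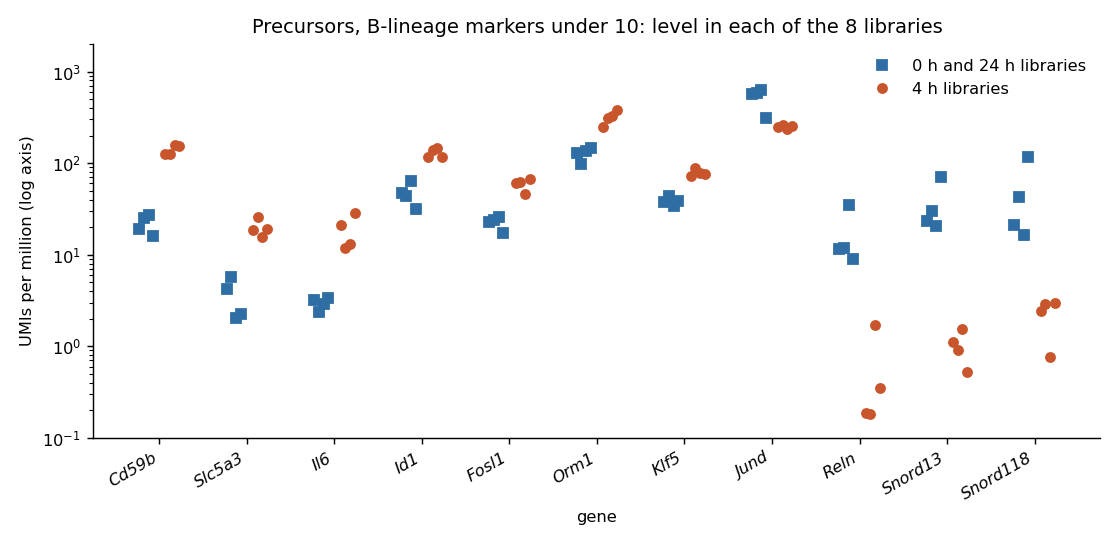
CPM (log axis) of 11 genes in clean members of the 8 libraries, 4 h libraries apart from 0 h and 24 h libraries. Cd59b sits at 126 to 158 at 4 h and at 16.1 to 27.3 otherwise, and Snord13 at 0.519 to 1.53 against 20.3 to 69.8.

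Other large rises were lost in some of the 8 fits with a library left out. Hmgb2l1, Pclo, Oas1a and Hemgn were lost in 5 of them, Ly6al in 4 and Pparg in 2. The highest adjusted p of each is given next. Hmgb2l1, a high mobility group gene, rose by 2.92 on the log2 scale (edgeR adjusted p = 0.0268), but had an adjusted p of 0.0874 without TO 4d 4h. Pparg, a lipid-sensing nuclear receptor (2.47), had 0.0562 without TO 4d 4h, Pclo (2.37) 0.155 and Oas1a, an interferon-induced gene (2.40), 0.114 without TO 4d 24h, Hemgn, a gene of blood progenitors and red cell precursors (2.13), 0.103 without TO 2d 4h, and Ly6al (1.94) 0.115 without TOE 2d 4h. Oas1a and Hemgn also overlapped between the groups.

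Most genes of the stage lists were not called by hour. In clean members 1 of 9 tested primary granule genes was called higher at 4 h (Lyz2, 0.72), 1 of 12 secondary granule genes (Orm1), 1 of 21 S-phase genes (Pcna, 0.59) and 1 of 23 G2/M genes (Plk1, 0.58). Over all genes 3.16% were called higher and 4.32% lower, and no test compared the lists of this paragraph with these shares. Of 19 mature neutrophil genes Mmp25 was higher (1.49) and S100a8 (-0.83) and Retnlg (-0.89) were lower, and of 17 factors Spi1 (0.69), Klf5 and Id1 were higher. Of 13 retention and release genes Cxcr4, the receptor that keeps neutrophils in the marrow, was higher (0.88), but it was not called over all members (edgeR adjusted p = 0.101). Of 12 heat shock genes Hspa1a (1.47) and Hspd1 (0.65) were higher and Hspa8 (-0.82) lower, of 11 interferon-induced genes Oas1a was higher and Oasl (-1.25) lower, and of 23 immediate early genes Fosl1 was higher and Jund lower. No gene of 16 for endoplasmic reticulum folding, 12 glucocorticoid targets, 12 circadian genes or 13 inflammatory genes was called by edgeR. Without single libraries the calls of Lyz2, Pcna (0.148 without TOE 2d 4h), Plk1, Mmp25 (0.0665 without TOE 2d 4h), S100a8 (0.175 without TO 2d 0h), Retnlg, Spi1, Cxcr4, Hspa1a (0.190 without TOE 4d 24h), Hspd1, Hspa8 and Oasl were lost. They were lost in 3 (Mmp25) to 7 (Pcna and Plk1) of 8 fits.

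The study followed 7 vesicle genes. In clean members Tsg101 (0.64), an ESCRT sorting protein, and Rab27a (0.58), which brings vesicles to the membrane, were higher at 4 h. Cd81 (-0.64), a tetraspanin, was lower and the others were not called, while 3.16% of all genes were called higher and 4.32% lower. With a library left out the call of Tsg101 was lost in 6 of 8 fits, and those of Rab27a and Cd81 in 7. Over all members the edgeR fit called 1 of the 7 lower and the others not, against 3.4% of all genes called lower. By level, Cd63 was at 736, 894 and 1062 CPM (lowest, median and highest library), Flot1 at 399, 547 and 585, Rab27a at 118, 180 and 251, Flot2 at 78.6, 111 and 195, Cd9 at 40.3, 78.3 and 121, Cd81 at 50.6, 62.5 and 96.3 and Tsg101 at 28.2, 49.5 and 75.4 CPM. By arm none of the 7 was called in the edgeR fit over all members or over clean members, and all 7 had a fitted value above 0 toward TOE in both (medians 0.23 and 0.20, over all genes 0.02 and 0.01).

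Families of genes named for their symbols, which were gathered after the calls had been seen, made up part of the falls. Of 49 tested histone genes 32 were lower at 4 h (median -1.38), from 20 without TOE 2d 4h to 35, and of 24 transfer RNA genes 20 were lower (median -3.17), from 5 without TO 4d 4h to 31, while 4.32% of all genes were lower. Histone genes summed to 81.6, 70.5, 68.1 and 57.3 UMIs per 10000 at 4 h, and to 140.1, 159, 207 and 91.4 otherwise, with the libraries in the order used for Cd59b. No 4 h library reached the others, but the gap rested on H3f3b, a gene of the replacement histone H3.3, which gave 23.2 to 32.4 of these UMIs at 4 h and 42.4 to 145 otherwise. Without it the sum was 34.2 to 49.2 at 4 h and 49.0 to 61.8 otherwise, and TO 2d 4h overlapped TOE 4d 24h. Of 103 genes with symbols of ribosomal proteins 10 were higher and 36 lower. The higher ones included Rps6kb1, a kinase gene, and the pseudogenes Rps14-ps7, Rpl34-ps2 and Rpl10a-ps9. The lower ones included the pseudogene Rps15a-ps7. With a library left out 3 (without TOE 2d 4h) to 11 were higher and 22 (without TO 4d 4h or TOE 2d 4h) to 62 (without TOE 4d 24h) lower.

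These changes were also read in other cells of the same libraries. Of the 20 most changed named genes, 19 moved the same way in progenitors, 20 in immature neutrophils, 19 in mature neutrophils and 19 in all cells that were not members, and 15, 17, 14 and 16 of them did not overlap between the hours. Over all 10853 genes 27.7% did not overlap in progenitors, 24.1% in immature neutrophils, 8.47% in mature neutrophils and 21.8% in cells that were not members. In clean members, where these 20 genes were chosen for their change, it was 25.6% (21.9% higher and 3.71% lower at 4 h). Overlap was read in unscaled CPM, in which the median gene of clean members was higher at 4 h by 0.25 on the log2 scale. In the scaled fit 3.16% of genes were called higher and 4.32% lower. In cells that were not members Cd59b was at 69.3 to 93.1 CPM at 4 h and 25.4 to 37.4 otherwise, and Il6 at 7.62 to 16.4 against 0.98 to 5.24. In immature neutrophils Orm1 was at 301 to 348 CPM at 4 h against 120 to 187, and Klf5 at 99.04 to 110.2 against 30.5 to 43.7. Prss34 was at 0.95 to 2.95 CPM at 4 h in the cells that were not members and at 60.7 to 156 otherwise. Histone genes summed to 54.9 to 71.6 UMIs per 10000 at 4 h against 78.0 to 118 in these cells, but the hours overlapped in progenitors, immature and mature neutrophils, and without H3f3b also in the cells that were not members (39.9 to 55.6 against 54.8 to 73.2). Whether the hour acts on the members apart from other cells of a library was not tested, and the hour and any handling that the 4 h libraries share cannot be told apart.

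**Figure D5:**
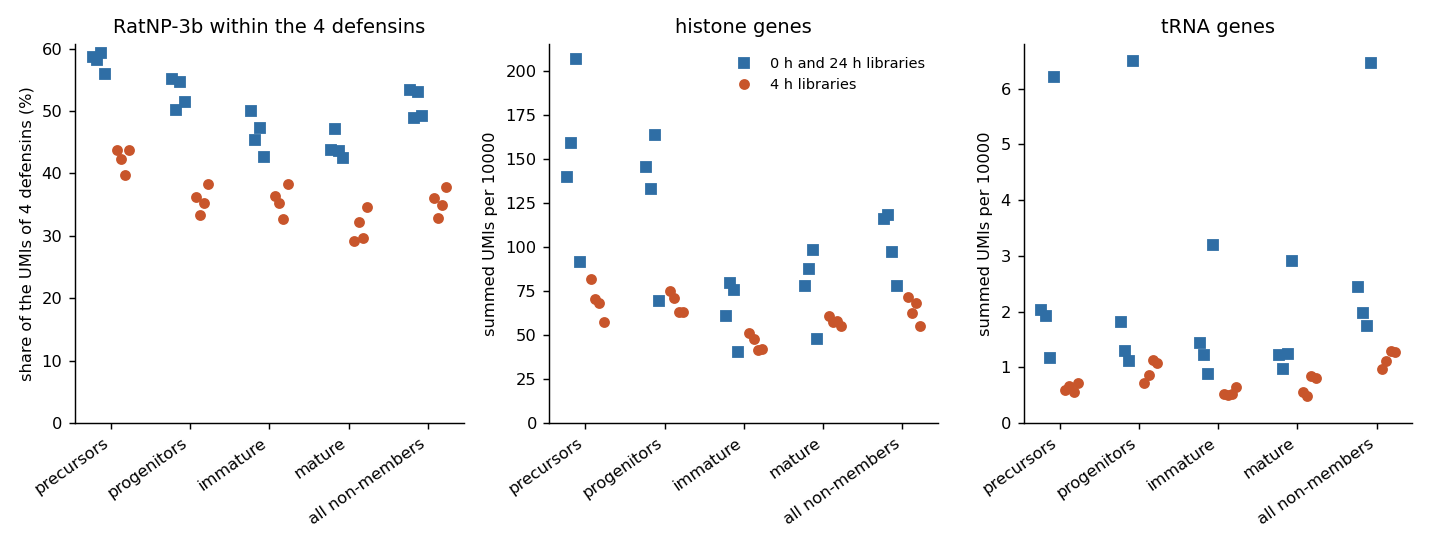
RatNP-3b as a share of the UMIs of 4 defensins (%), and summed histone and transfer RNA UMIs per 10000, in clean members, progenitors, immature and mature neutrophils and all cells that were not members, by library. RatNP-3b lies at 39.7% to 43.8% at 4 h and 55.9% to 59.2% otherwise in members, and is split by hour in every other set of cells shown.

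The summed markers of other cells in clean members overlapped between the hours. All 9 erythroid markers were measured and summed to 11.4 to 54.1 UMIs per 10000 at 4 h and 0.213 to 21.4 otherwise, with 8 of 9 higher (median 1.1998) and none called. The 4 mesenchymal markers summed to 1.22 to 2.30 at 4 h and 1.92 to 35.8 otherwise (median -2.48, none called), and the 4 markers of mast cells and basophils to 0.315 to 1.19 and 0.487 to 7.22, with 1 of the 3 tested called lower (Prss34) and a median of -2.09. The eosinophil markers summed to 0.106 to 0.370 and 0.182 to 3.31, and the 1 tested was at -2.27 and not called. B-lineage markers summed to 1.98 to 3.06 at 4 h and 2.42 to 3.45 otherwise, with Cd79a called lower, a call lost in 5 of 8 fits with a library left out (edgeR adjusted p up to 0.134, without TO 4d 4h). T and NK cell markers stayed at 0.0156 to 0.0847 and endothelial markers at 0.0471 to 0.124 in all libraries, and of the platelet markers Ppbp was at 0. The part of these cells in the hour result was not tested.

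Day and arm gave no call in the edgeR fit. Between day 4 and day 2, 0 of 10853 genes in clean members were called (0%), with 403 at an unadjusted p under 0.05 and 11 called by DESeq2, and over all members 0 of 11778 (0%), with 790 unadjusted and 19 by DESeq2. Between TOE and TO, 0 were called in clean members (0%), with 341 unadjusted and 7 by DESeq2, and 0 over all members (0%), with 317 unadjusted and 10 by DESeq2. Without TOE 4d 24h, 19 genes in clean members and 2 over all members were called by arm, and without TO 2d 4h, 2 were called by day in either set. Genes whose libraries did not overlap made up 1.23% by day (0.461% higher and 0.765% lower on day 4) and 1.17% by arm (0.608% higher and 0.562% lower in TOE). The genes with the smallest p are therefore given as values. By day, Dnajb1, a heat shock co-chaperone, had a fitted difference of 0.60 and Retnlg, a resistin-like gene, of 0.85 toward day 4, and Cemip2, a hyaluronidase, of -1.27.

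By arm, Retn (resistin), a secreted protein of myeloid cells, was at 242 (TO 2d 0h), 308 (TO 2d 4h), 279.5 (TO 4d 4h) and 408 CPM (TO 4d 24h) in TO and at 447 (TOE 2d 4h), 582 (TOE 2d 24h), 463 (TOE 4d 4h) and 1176 CPM (TOE 4d 24h) in TOE. The arms did not overlap, with a fitted log2 difference of 1.03 in clean members, and edgeR gave an adjusted p of 1 in clean members and 0.366 over all members. The erythroid markers summed to 18.2 to 54.1 UMIs per 10000 in TO and 0.213 to 13.6 in TOE. Red cell RNA in the members thus lay apart between the arms, and its part in the arm values was not tested.

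Matched libraries of TOE and TO were set side by side with no test. At 2d 4h, Mgp (matrix Gla protein of mesenchymal cells) was at 0.93 CPM in TO and 97.4 in TOE, and the haemoglobin gene Hbb at 86.1 and 10.9. At 4d 4h, Spp1 (osteopontin) was at 17.1 in TO and 149.8 in TOE, and Fbxo17, a ubiquitin ligase subunit, at 5.58 and 35.8. At 4d 24h, Fbxo17 was at 1.88 and 22.7, Col25a1 at 0.94 and 27.9, Hba-a1 at 913 and 4.98, and Ccl5 at 68.2 and 0.45. The genes that differed most thus held markers of red cells and of mesenchymal cells, and Fbxo17 was higher in TOE in both pairs of day 4. Of 23 G2/M genes, 21 were higher in TOE at 2d 4h (median log2 difference 0.24), 5 at 4d 4h (-0.18) and 10 at 4d 24h (-0.10). Of the 7 vesicle genes, 7 were higher in TOE at 2d 4h (median 0.42), 7 at 4d 4h (0.10) and 3 at 4d 24h (-0.07). The medians over all genes were 0.05, -0.11 and -0.04 in the same pairs, so neither list went one way in all 3.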

How the data were processed

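Tissue of the tibial osteotomy site was profiled with 10x Genomics Chromium libraries, 1 per condition, in 8 libraries. The authors deposited raw UMI counts per gene for 12451 (TOE 4d 24h) to 17187 barcodes (TOE 2d 4h) per library, and the file headers name Cell Ranger 9.0.0. The submitters' processing notes also name R 4.0.3 and Seurat and the builds mRatBN7.2 and GRCh38, without their roles.

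Cells with fewer than 200 genes or over 20% mitochondrial UMIs were left out, and no cell was removed as a doublet. Scrublet scores (scanpy 1.11.5, expected rate 8%) were used as a check. Counts were summed per library over the members. edgeR 4.0.16 (R 4.3.3) was run with its quasi-likelihood test, TMM scaling, filterByExpr and Benjamini-Hochberg adjustment, with arm, day and hour as terms and a threshold of 0.05. It was tested on simulated data. DESeq2 1.42.0 was an alternative. Single values were compared by exact two-sided permutation over 4 against 4 libraries (70 arrangements, smallest p 0.0286). Shares of members were put on the log2 scale for this test. Intervals are 95% exact binomial or Poisson ones and cover counting error only. The libraries of a factor level differ in the other factors and are not known to be replicate animals, so p-values measure the spread between these 8 libraries.

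Genes were named by rule: the given markers, listed genes, and in each fit the 10 largest rises and falls among called genes with at least 100 UMIs, LOC genes left out. Where fewer than 5 were called, the 5 with the smallest p in each direction were taken as values, and in matched pairs the 5 largest differences each way among genes with at least 50 UMIs. The text prints a part of these. Members and gene lists were chosen with earlier results of these data known, and the limit on B-lineage UMIs and the gene families by symbol were set after seeing the data. Promoters came from RefSeq (GRCr8) and were aligned with Biopython 1.88. Alternatives were other limits of the rule, cell filters, scalings, gene filters, denominators and each library left out.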

Additional observations from a re-analysis of the deposited data

Results flagged for a closer look

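TO 2d 4h, at 11.5% of kept cells for all members, lay far from the other TO libraries and from the other 4 h libraries. The gap to its nearest neighbour was 0.882 of the range among the TO libraries and 0.852 among the 4 h libraries, above the 0.829 of Dixon's test for 4 values. Over 30 groups of 4 examined there were 2 such cases, and about 1 in 20 arises by chance. Its members with few B-lineage UMIs made up 2.45% and did not stand apart.

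The ratio of TOE to TO in the share of kept cells went opposite ways between time points. Over all members it was 0.391 (2d 4h) and 1.71 (4d 24h). In members with few B-lineage UMIs it was 0.739 (4d 4h) and 1.92 (4d 24h). As shares of the neutrophil line, the same members had ratios of 1.28 (2d 4h), 0.981 (4d 4h) and 1.33 (4d 24h). With 1 library per condition the difference between time points was not tested.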

How the results depend on the processing

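The share of members by arm had no stable direction. The difference of mean log2 shares (TOE minus TO) was -0.01 over all members, and 0.22 with few B-lineage UMIs, 0.0734 with a defensin limit of 100, 0.29 with one of 200, 0.16 with a protease limit of 10 and 0.16 in the neutrophil line with few B-lineage UMIs. With each library left out it ran from -0.27 to 0.48 over all members and from 0.0507 to 0.38 with few B-lineage UMIs, where it was also 0.177, 0.29, 0.29, 0.16, 0.29 and 0.16. By hour (0.54) it ran from 0.13 to 0.73 and from -0.0466 to 0.27, and by day (-0.64) from -0.91 to -0.25 and from -0.14 to 0.19, with 0.00404 without TO 2d 4h, 0.0743 without TOE 2d 24h and 0.00378 without TOE 4d 4h. With a stricter cell filter (at least 500 genes, at most 10% mitochondrial UMIs) the difference by hour over all members was 0.92 (exact permutation p = 0.143). By day it was -0.97 in the neutrophil line and -0.62 there with few B-lineage UMIs, both at the smallest possible exact permutation p of 0.0286. The cause was not tested.

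Genes called by hour numbered 598 to 860 when no library was left out and members were not split by B-lineage UMIs, and 186 to 1209 over all members or 236 to 1871 with few B-lineage UMIs when a library was left out (there 262 without TOE 2d 4h, 344 without TO 2d 4h, 353 without TO 2d 0h and 386 without TO 4d 24h). By day 2 genes were called without the low-count filter, 19 by DESeq2 (11 with few B-lineage UMIs) and 0 to 2 with a library left out in either set. By arm these were 5, 10 (7) and 0 to 2 or 0 to 19. A fit of the 3 matched pairs with the time point as a block gave 0 calls by arm in edgeR, with 609 genes at an unadjusted p under 0.05 (471 with few B-lineage UMIs). Against progenitors 8136 to 8529 and against immature neutrophils 6771 to 7178 genes were called with a library left out. Of the values of single genes under the alternatives, 2473 kept their side of the threshold, 114 passed it newly, 273 lost it (28 genes, all by hour) and 0 changed direction.

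By replicate number, beside these pairs of matched time points, no paired analysis was possible because each condition has 1 library, numbered 1. Depth limits genes of few UMIs: clean members of TO 4d 24h summed to 2125378 UMIs, the fewest of the 8 libraries.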
